A study of Mus musculus with 17 samples.

Results

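Expression of 10 genes was examined in microvessels isolated from mouse cerebral cortex. The genes were Bin1, Picalm, Cd2ap, Sorl1, Ptk2b, Fermt2, Mef2c, Cass4, Rin3 and Cd33, the mouse orthologues of genes at human Alzheimer's disease risk loci that act mainly in endocytosis, endosomal sorting and cell adhesion. They were chosen by name, with earlier results of these data known. All 10 were found by Ensembl ID among the 42687 genes of the deposited count table. The study sequenced 17 libraries from wild-type (WT) mice and from mice labelled APP, which the design text names APP/PS1, a transgenic amyloid model, all 10 to 11 months old. Mice of each genotype were injected intraperitoneally with 10 mg/kg of a peptide once in 2 days over 2 weeks, either gp91-ds-tat, an inhibitor of the superoxide-producing oxidase NOX2, or sgp91-ds-tat as control. The labels NOX2 and SC were read as inhibitor and control. The groups were WT with control peptide (WT_SC, 5 libraries), WT with inhibitor (WT_NOX2, 5), APP/PS1 with control peptide (APP_SC, 2) and APP/PS1 with inhibitor (APP_NOX2, 5). The protocol also speaks of surgery and of the ipsilateral cortex without describing an operation. The labels give no sex, strain, line or transgene promoter, and do not say which mice gave each library, so p-values measure the spread between these libraries.

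Risk genes of this kind are studied because amyloid-β and its precursor APP move through cells in clathrin-coated vesicles and endosomes, and because brain endothelium carries amyloid-β across the vessel wall by the same route. Picalm and Bin1 shape the coat and the membrane of endocytic vesicles, Cd2ap and Rin3 link these vesicles to actin and to the endosomal switch RAB5, and Sorl1 sorts APP away from cleavage. Ptk2b, Fermt2 and Cass4 act at integrin adhesions. Mef2c is a transcription factor of endothelial, neuronal and myeloid cells, and Cd33 is a sialic acid-binding receptor of myeloid cells, which in brain are mainly microglia. Mef2c and Cd33 are therefore outside endocytosis and adhesion in the narrow sense.

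Total counts per library were between 7316503 and 17862965, and 18753 genes passed the filter on low counts, all 10 risk genes among them. The genotype labels were checked on App and on Prnp, the gene whose promoter is used for the transgenes of common APP/PS1 mice. Mean log2 levels were higher in APP/PS1 by 0.69 for App (exact permutation test, two-sided, p = 0.000206) and by 1.30 for Prnp (exact permutation p = 5.14e-05, the smallest that 19448 splits can give). By library, the levels of App overlapped between genotypes and those of Prnp did not, so App checks the means and not single libraries. The labels describe endothelium, pericytes and astrocytic endfeet. The 9 endothelial markers summed to between 2300 and 4290 in CPM, the count of a gene scaled to the effective library size, and the 8 neuronal markers to between 3080 and 5050 CPM, so neuronal RNA was present throughout. No tested marker was at 0 in all libraries. Of 12 marker scores, those of microglia (described with Cd33) and astrocytes differed by genotype, the latter by 0.33 (exact permutation p = 0.00334, adjusted 0.02), and the other 10 had adjusted p-values of 0.209 or more. Of the 6 astrocyte markers Gfap alone was called, with a log2 change of 1.21 (edgeR adjusted p = 0.000125), and the other 5 were between -0.11 and 0.46. Of the 5 tested neutrophil markers Csf3r alone was called, at 24.4 CPM in APP/PS1 and 11.8 CPM in WT. Its log2 change was 1.04 (edgeR adjusted p = 4.27e-05), and the others, at few counts, were between -0.37 and 1.27. In such bulk samples fewer cells of a type and less RNA per cell cannot be told apart.

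Of the 10 genes, Cd33 alone passed the test by genotype. In WT with control peptide Cd33 (ENSMUSG00000004609) was at 20.2, 17.7, 21.9, 20.7 and 19.0 CPM in the 5 libraries, and in WT with inhibitor it was at 18.1, 21.1, 16.97, 19.4 and 18.3 CPM. In APP/PS1 with control peptide it was at 28.3 and 27.9 CPM, and with inhibitor at 28.4, 28.2, 24.6, 26.8 and 24.7 CPM. Every APP/PS1 library thus lay above every WT library, with either peptide. Means were 26.98 CPM ± 1.67 (SD, 7 libraries) for APP/PS1 and 19.3 CPM ± 1.62 (SD, 10 libraries) for WT. The log2 change was 0.50 ± 0.068 (SE), a fold of 1.41 with a 95% interval of 1.28 to 1.56 (edgeR quasi-likelihood test, Benjamini-Hochberg adjusted p = 0.000511). Among all 18753 genes, 0.587% were called in this comparison, 0.56% as higher in APP/PS1, against 1 of the 10 risk genes. Libraries of the 2 genotypes did not overlap for 0.272% of all genes, and for Cd33 alone among the risk genes.

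**Figure D1:**
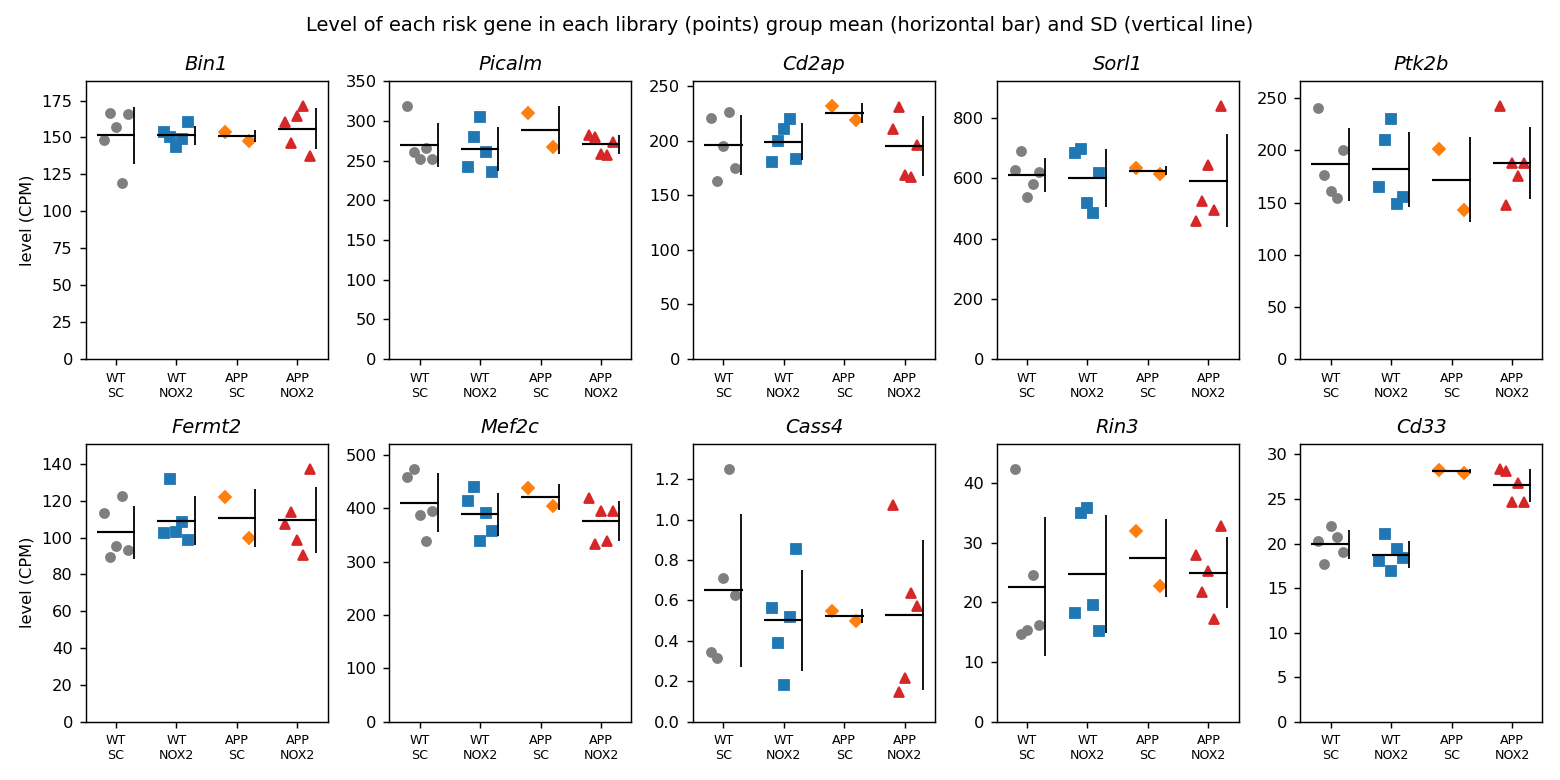
Level in CPM (vertical axes, from 0) of each risk gene in each of the 17 libraries by group, with the group mean as a horizontal bar and the SD as a vertical line. The 7 APP/PS1 points of Cd33, at 24.6 to 28.4 CPM, are all above the 10 WT points, at 16.97 to 21.9 CPM, whereas the genotypes overlap for the other 9 genes.

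The Cd33 difference was close to 0.50 in log2 with each peptide. With control peptide the log2 change was 0.50 ± 0.11 (SE, 2 APP/PS1 libraries), which did not pass (edgeR adjusted p = 0.18), in a comparison where 0.0533% of genes were called. With inhibitor it was 0.50 ± 0.089 (SE) and passed (edgeR adjusted p = 0.0197), where 0.181% of genes were called. The call with inhibitor was lost without WT_NOX2 replicate 1, 3 or 5 or APP_NOX2 replicate 2 or 4 (edgeR adjusted p between 0.0641 and 0.0898), with log2 changes between 0.47 and 0.50. Over both peptides the call held without any 1 of the 17 libraries, with log2 changes from 0.48 to 0.53 (edgeR adjusted p from 0.000419 to 0.00272). With the DESeq2 Wald test the change with control peptide passed as well. The interaction, the difference between the genotypes in the inhibitor effect, was 0.005 ± 0.15 (SE, 95% interval -0.30 to 0.31, edgeR adjusted p = 1).

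Cd33 lies on the minus strand of chromosome 7 at chr7:43524216-43544428 in GENCODE vM21 (build GRCm38, to which the mm10 of the submitters' processing notes corresponds). It is shown beside Picalm, on the plus strand at chr7:90130213-90213465, because Cd33 passed by genotype and Picalm did not, and because their promoters differ in base composition. The stretches end at the base before the RefSeq start site in GRCm38.p6, at chr7:43533172-43533364 for Cd33 (minus strand, 193 bases) and chr7:90129985-90130212 for Picalm (plus strand, 228 bases), and leave out bases that are exonic in an annotated transcript. The RefSeq start of Cd33 lies inside its GENCODE span. They are printed 5′ to 3′ along the gene, with capitals for GGAAGT, the core bound by ETS factors, in Cd33 and for GGGCGG, the GC box bound by SP1, on either strand in Picalm.
Cd33 promoter: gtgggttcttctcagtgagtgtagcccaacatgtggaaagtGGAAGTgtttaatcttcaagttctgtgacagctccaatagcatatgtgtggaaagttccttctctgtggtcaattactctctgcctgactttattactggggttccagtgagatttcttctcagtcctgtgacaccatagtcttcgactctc
Picalm promoter: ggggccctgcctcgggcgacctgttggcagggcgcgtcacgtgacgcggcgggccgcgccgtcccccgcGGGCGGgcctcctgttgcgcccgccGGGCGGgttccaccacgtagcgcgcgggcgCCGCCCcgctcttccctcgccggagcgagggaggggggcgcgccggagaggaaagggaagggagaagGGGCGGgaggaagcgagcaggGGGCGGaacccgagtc

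The Cd33 stretch has 44.6% G or C and 1 CpG, and the Picalm stretch has 78.9% and 35 CpG. On either strand, the windows of 250 bases before the start held 1 copy of GGAAGT in Cd33 and 6 copies of GGGCGG in Picalm. Windows of Cass4, Mef2c and Sorl1 also held GGAAGT, and windows of Fermt2, Mef2c, Rin3 and Sorl1 also held GGGCGG. Over all 32851 RefSeq promoter windows of 250 bases, 19.7% held GGAAGT and 32.7% held GGGCGG, each on either strand. The median over these windows was 52.4% G or C with 6 CpG. Of the 10 genes, 8 had 12 windows in that table, Bin1 and Ptk2b not among them. Cd2ap (76.4% G or C, 31 CpG) and Fermt2 (76.0%, 31 CpG) resembled Picalm, and Rin3 had 71.2% and 62.0% in its 2 windows. Cass4 had 52.8% and 6 CpG, and the 3 windows of Mef2c ranged from 33.6% to 49.6%. The 2 windows of Sorl1 had 47.2% and 69.6%.

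Microglial transcripts were also higher in APP/PS1. The microglia marker score, the mean log2 CPM of 6 genes, Cx3cr1, P2ry12, Tmem119, Csf1r and Aif1 among them, was between 4.11 and 4.50 in WT and between 4.45 and 5.26 in APP/PS1, a difference of 0.62 (two-sided exact permutation p = 0.000103, 0.00124 adjusted over 12 marker lists). All 6 markers were measured, with none at 0 in any library, and summed to 171 to 238 CPM in WT and 205 to 385 CPM in APP/PS1. Of the 6, 4 were called higher in APP/PS1, Cx3cr1 with a log2 change of 0.78 and Csf1r with 0.63 among them (edgeR adjusted p = 0.00262 and 0.00933). With the score subtracted from its log2 level, Cd33 had a mean difference of -0.14 between APP/PS1 and WT, which did not pass (exact permutation p = 0.246), with values from -0.63 to 0.38 in APP/PS1 libraries and from -0.21 to 0.21 in WT libraries, a comparison added after the values were seen. Subtraction takes Cd33 to change 1 for 1 with the score, which was not tested. The SD over APP/PS1 libraries was 0.327 after subtraction and 0.0909 before it, so the spread of the score enters this p-value. The comparison therefore cannot decide the part of microglial content in the Cd33 difference, which was not tested.

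Within groups no relation of Cd33 to the microglia score was detected. Over the 17 libraries, with group means removed, Pearson's r was 0.01 (permutation p = 0.971, 0.988 adjusted over 120 pairs) and Spearman's rho 0.12 (permutation p = 0.662, adjusted 0.845). Without the 2 libraries farthest from the median score, APP_SC replicate 2 and APP_NOX2 replicate 5, r was 0.27. Both are APP/PS1 libraries and APP_SC replicate 1 is then alone in its group, so WT libraries weigh more in this value. The pooled r joins opposite values in the genotypes, 0.51 over the 10 WT libraries and -0.50 over the 7 APP/PS1 libraries, which were not tested separately. APP_NOX2 replicate 1 had the lowest microglia score of the APP/PS1 libraries, 4.45, and the highest Cd33 level, 28.4 CPM. APP_NOX2 replicate 5 had the highest score, 5.26, and a Cd33 level of 24.7 CPM.

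**Figure D2:**
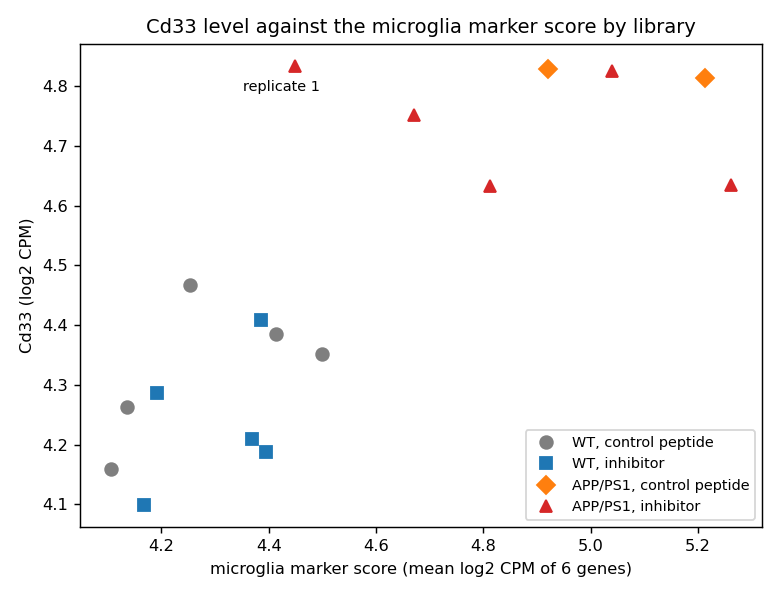
Cd33 level (vertical axis, log2 CPM) against the microglia marker score (horizontal axis, mean log2 CPM of 6 genes), 1 point per library. APP/PS1 libraries lie at 4.63 to 4.83 and WT libraries at 4.10 to 4.47 on the vertical axis, and APP_NOX2 replicate 1 has a score within the WT range.

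Other Siglecs and phosphatases of inhibitory signalling were taken from a list of 11 genes, of which 9 were tested. Whether these phosphatases act below mouse Cd33 or the other Siglecs was not tested. By genotype 2 of the 9 were called higher and 0 lower, where 0.56% of all genes were called higher, and the median log2 change of the list was 0.44 against 0.002 over all genes tested. Siglech, a Siglec of microglia and plasmacytoid dendritic cells, averaged 19.1 CPM in APP/PS1 and 11.9 CPM in WT, which is a change of 0.72 ± 0.10 (SE) in log2 (edgeR adjusted p = 0.000676). Inpp5d, the lipid phosphatase SHIP1 and itself at a human risk locus, averaged 33.1 and 24.7 CPM, which is a change of 0.41 ± 0.091 (SE) in log2 (edgeR adjusted p = 0.0401). The call of Siglech held without any 1 of the 17 libraries (edgeR adjusted p from 0.000147 to 0.00474). That of Inpp5d held only without WT_SC replicate 1 or 4, WT_NOX2 replicate 1 or 4, APP_SC replicate 1 or APP_NOX2 replicate 3 and was lost without any 1 of the other 11 libraries (edgeR adjusted p up to 0.254, without APP_SC replicate 2), in fits chosen after seeing the data. With all libraries it was also lost when the effects within each peptide were averaged (edgeR adjusted p = 0.0757). Siglece, another CD33-related Siglec, was at -0.002 ± 0.23 (SE) in log2 between genotypes and did not pass (edgeR adjusted p = 1). Scaled to exon length, Cd33 was 4.11-fold above Siglece as a geometric mean and higher in all 17 libraries.

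Of the genes of the endocytic coat and membrane, Picalm (ENSMUSG00000039361), which encodes the clathrin assembly protein CALM, ranged from 236 to 318 CPM in WT and from 257 to 310 CPM in APP/PS1. The genotypes overlapped, and the fold by genotype was 1.04 with a 95% interval of 0.94 to 1.15 (edgeR adjusted p = 0.984). Bin1 (ENSMUSG00000024381, chr18:32377230-32435737, plus strand), which encodes the membrane-bending protein amphiphysin 2, ranged from 120 to 167 CPM in WT and from 137 to 171 CPM in APP/PS1. Its fold was 1.02 with an interval of 0.919 to 1.12 (edgeR adjusted p = 0.997).

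Of the adaptors, Cd2ap (ENSMUSG00000061665, chr17:42792951-42876665, minus strand), a scaffold between endocytic vesicles and actin, ranged from 163 to 226 CPM in WT and from 167 to 231 CPM in APP/PS1. Its fold by genotype was 1.04 with an interval of 0.917 to 1.18 (edgeR adjusted p = 0.991). The 2 libraries of APP/PS1 with control peptide were at 219 and 231.3 CPM, the latter the highest of the 17 libraries, next to APP_NOX2 replicate 2 at 230.7 CPM. Rin3 (ENSMUSG00000044456, chr12:102283048-102390855, plus strand), an activator of RAB5 that binds BIN1 and CD2AP, was the most variable of the well-measured genes. It was at 42.3, 14.7, 15.4, 24.6 and 16.2 CPM in WT with control peptide and at 18.2, 35.01, 35.8, 19.6 and 15.2 CPM in WT with inhibitor. It was at 32.02 and 22.8 CPM in APP/PS1 with control peptide and at 27.9, 21.7, 25.2, 17.1 and 32.8 CPM with inhibitor. Libraries thus differed within each group, and the coefficient of variation over the 17 libraries was 34.7%, against 8.2% for Bin1 and 8.56% for Picalm. The fold of Rin3 by genotype was 1.07 with an interval of 0.773 to 1.49 (edgeR adjusted p = 0.996).

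Sorl1 (ENSMUSG00000049313, chr9:41964720-42124297, minus strand), the sorting receptor SORLA, ranged from 486 to 698 CPM in WT and from 458 to 840 CPM in APP/PS1. Its fold by genotype was 0.999 with an interval of 0.846 to 1.18 (edgeR adjusted p = 1). APP/PS1 with inhibitor held both the lowest and the highest of the 17 libraries, APP_NOX2 replicate 1 at 458 CPM and replicate 5 at 840 CPM. Of the adhesion genes, Ptk2b (ENSMUSG00000059456, chr14:66153257-66281052, minus strand), which encodes the calcium-activated focal adhesion kinase PYK2, ranged from 149 to 241 CPM in WT and from 143 to 242 CPM in APP/PS1, with a fold of 0.992 (interval 0.83 to 1.19, edgeR adjusted p = 0.999). Fermt2 (ENSMUSG00000037712, chr14:45458795-45530118, minus strand), which encodes the integrin activator kindlin-2, ranged from 89.7 to 132 CPM in WT and from 90.4 to 137 CPM in APP/PS1, with a fold of 1.03 (interval 0.90 to 1.18, edgeR adjusted p = 0.996). The ranges of both genes overlapped between genotypes. Cass4 (ENSMUSG00000074570, chr2:172393794-172433757, plus strand), a scaffold of the CAS family, had few reads, 2 to 17 counts per library, and lay below the floor of 3 counts in WT_NOX2 replicate 3 and APP_NOX2 replicates 2 and 3. Its fold of 0.981 had an interval of 0.552 to 1.74, so that changes inside it were not detectable at this depth (edgeR adjusted p = 0.999), and 21.2% of its exon length overlaps the antisense gene Gm14455, so that its counts are uncertain where strand was not used. Overlap with an antisense exon was 6.22% of exon length for Bin1 and 1.63% for Sorl1. Mef2c (ENSMUSG00000005583, chr13:83504034-83667080, plus strand) ranged from 339 to 473 CPM in WT and from 334 to 439 CPM in APP/PS1, with a fold of 0.99 (interval 0.879 to 1.11, edgeR adjusted p = 0.999).

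**Figure D3:**
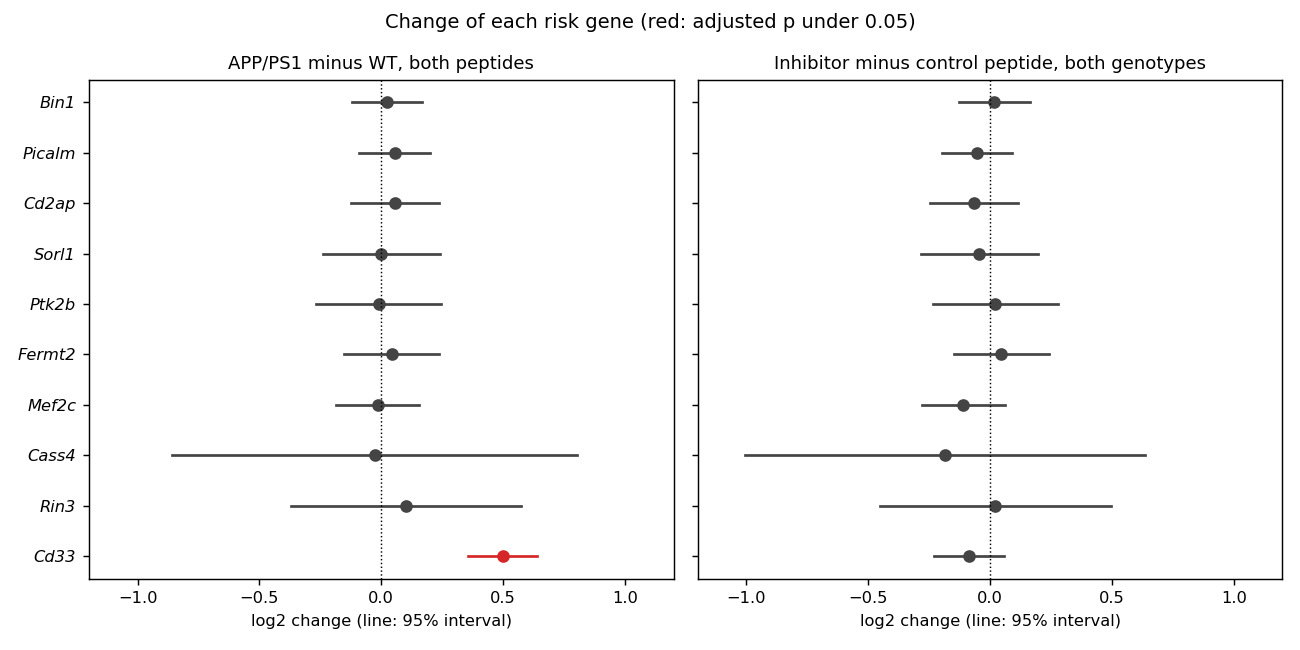
Log2 change of each risk gene by genotype over both peptides (left) and with inhibitor over both genotypes (right), with 95% intervals as lines. The interval of Cd33 by genotype, 0.36 to 0.64, lies above 0, the other intervals include 0, and those of Cass4 and Rin3 are the widest.

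None of the 10 genes passed the test with the inhibitor. Over both genotypes 0 genes passed by edgeR's quasi-likelihood test (0% of all genes called) while 396 genes, and 0 of the 10, had an unadjusted p under 0.05. DESeq2 called 0 genes as well. Mef2c was at 382 CPM ± 37.6 (SD, n = 10) with inhibitor and 413 CPM ± 46.5 (SD, n = 7) with control peptide, a fold of 0.926 with an interval of 0.823 to 1.04 (edgeR adjusted p = 1). It had the smallest p of the 10 genes, 0.193 unadjusted. Cd33 had a fold of 0.942 (interval 0.854 to 1.04) and Cd2ap of 0.956 (interval 0.843 to 1.08). The folds of Picalm, Bin1, Sorl1, Fermt2 and Ptk2b were between 0.964 and 1.03, with interval ends from 0.821 to 1.21. Intervals were wider for Rin3, with a fold of 1.02 (interval 0.732 to 1.41), and Cass4, with 0.879 (interval 0.498 to 1.55). Changes inside these intervals were not detectable. Within WT, within APP/PS1 and for the interaction, edgeR called 0% of all genes and 0 of the 10, 0 of the 10 had an unadjusted p under 0.05, and DESeq2 called 0 genes. The largest interaction among the genes other than Cass4 and Rin3 was that of Cd2ap, -0.23 ± 0.18 (SE, edgeR adjusted p = 1). The inhibitor and genotype comparisons share libraries, and the comparisons within APP/PS1 rest on 2 control libraries.

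The levels of the 10 genes were ordered per length, as CPM per kb of merged exons in GENCODE vM21, which understates genes with long rarely used exons. Sorl1 was highest at 53.4 CPM per kb ± 8.49 (SD, n = 17), above 98.6% of genes tested, followed by Bin1 at 37.1 ± 3.04 and Mef2c at 25.1 ± 2.74. Ptk2b (24.9 ± 4.41) and Mef2c did not differ beyond their spread, Mef2c being higher in 9 of 17 libraries. Fermt2 (20.7 ± 2.73) was above Picalm (17.2 ± 1.47) in all 17 libraries, though their ranges overlapped, and below Ptk2b in 13 of 17. Picalm lay above Cd2ap (12.6 ± 1.48) without overlap. Rin3 (3.58 ± 1.24) and Cd33 (2.89 ± 0.539) did not differ beyond their spread, Rin3 being higher in 10 of 17 libraries. Cass4 was last at 0.104 ± 0.0561, above 0.402% of genes tested.

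**Figure D4:**
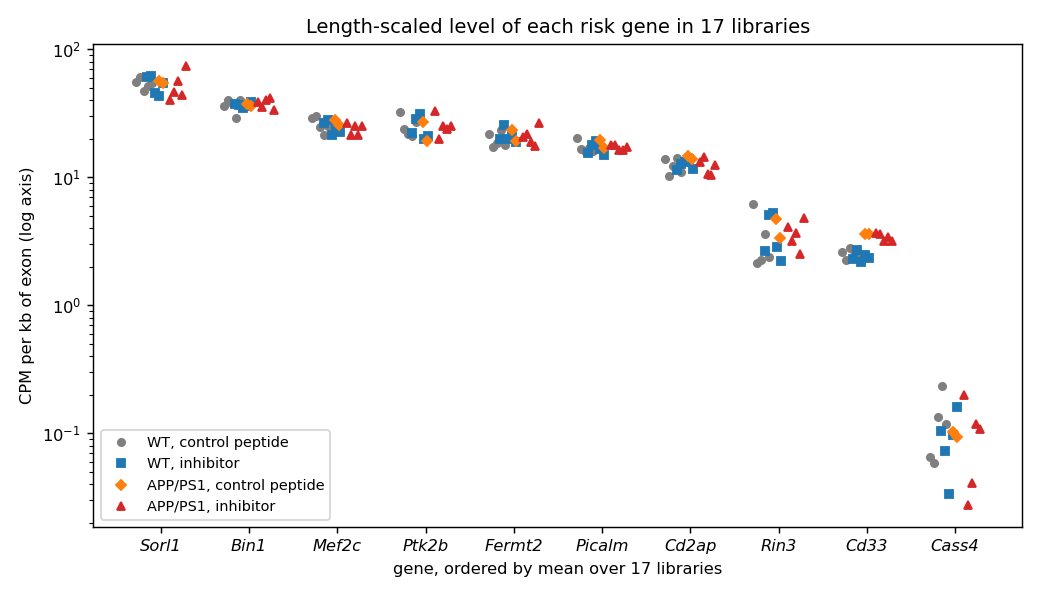
Level of each risk gene per kb of exon (vertical axis, log scale) in the 17 libraries, ordered by mean. The genes from Sorl1 to Cd2ap lie between 10.3 and 74.2 CPM per kb, Rin3 and Cd33 between 2.15 and 6.19, and Cass4 at 0.234 or lower.

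Each gene was set beside a close paralogue on the same scale. Kindlin-2 (Fermt2) was 22.7-fold above the leukocyte kindlin Fermt3 as a geometric mean and higher in all 17 libraries. Cass4 was at 0.0184 of the level of Nedd9, another CAS scaffold, and lower in all 17 libraries. Bin1 was 1.75-fold above Amph, Ptk2b 1.84-fold above Ptk2, Cd2ap 2.81-fold above Sh3kbp1 and Mef2c 1.58-fold above Mef2a, each in 17 of 17 libraries. Sorl1 was below Sort1 in all 17 libraries at 0.654 of its level. Picalm and its neuronal paralogue Snap91 did not differ beyond their spread, at 17.2 and 17.6 CPM per kb, Picalm being higher in 7 of 17 libraries. Rin3 and Rin2, at 3.58 and 4.25, also overlapped in spread. Rin3 was at 0.808 of the level of Rin2 and higher in 5 of 17 libraries. Fermt3 had the largest change of these paralogues by genotype, 0.34 ± 0.15 (SE) on the log2 scale, and did not pass (edgeR adjusted p = 0.722).

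The machinery around these genes was examined through 8 lists of 138 genes in all, of which 135 were tested. By genotype 2 were called, Siglech and Inpp5d, and 0 in the other 7 lists. In the clathrin coat list 0 of 24 genes passed, with a median log2 change of 0.018 against 0.002 over all genes. The gene with its smallest p was Fcho1, which nucleates clathrin pits, at 91.8 CPM in APP/PS1 and 115 CPM in WT (log2 change -0.36 ± 0.093 SE, edgeR adjusted p = 0.122). In the membrane curvature list 0 of 19 passed, and Bin2, a leukocyte relative of Bin1, was at 4.75 CPM in APP/PS1 and 2.96 CPM in WT (log2 change 0.68 ± 0.17 SE, edgeR adjusted p = 0.0954). In the RAB5 list 0 of 15 passed, Rinl having the smallest p (edgeR adjusted p = 0.817). In the retromer and sorting receptor list 0 of 17 passed, Sorcs1 having the smallest p (edgeR adjusted p = 0.791). In the focal adhesion list 0 of 33 passed, Fermt3 having the smallest p (edgeR adjusted p = 0.722). In the CD2AP adaptor list 0 of 9 passed, Cbl having the smallest p (edgeR adjusted p = 0.874), and in the MEF2 list 0 of 9, Klf4 having the smallest p (edgeR adjusted p = 0.776). With inhibitor over both genotypes 0 of the 135 passed in edgeR, and list medians were between -0.017 and 0.062 on the log2 scale, against 0.004 over all genes. The genes with the smallest p there were Ap2a1, Sh3gl1, Rabep2, Vps29, Sh3kbp1, Itgav, Hdac9 and Siglech, each with an edgeR adjusted p of 1.

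Between libraries of a group, the genes varied with marker scores of different cell types. Each gene was correlated with 12 marker scores over the 17 libraries after removal of group means, with two-sided permutation p-values adjusted over 120 pairs. The scores and the genes share library, scaling and depth. How the scores vary with each other was not tested, so a pair may not be particular to its cell type. Bin1 also had r = -0.74 with the pericyte score and Cd2ap r = 0.73 with the perivascular macrophage score, neither of which passed. Of the 120 pairs 9 passed by Pearson's r and 10 by Spearman's rho. The number by r was between 0 and 9 when 1 library was left out. Each of the 9 kept its sign in all 17 such fits, but each lost its call in some of them, as given beside it.

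Cd2ap followed the smooth muscle score, with r = 0.84 (permutation p = 0.00064, adjusted 0.0225), rho = 0.77 (permutation p = 0.00195, adjusted 0.0384) and r = 0.76 without the 2 libraries farthest from the median score. This call was lost in 5 of 17 fits with 1 library left out. Below, "those 2" are the 2 libraries farthest from the median of the score being named, picked anew for each score. Distance was taken on scores before group means were removed. Cd2ap also followed the fibroblast score, with r = 0.78 (permutation p = 0.00323, adjusted 0.0447), rho = 0.74 (permutation p = 0.00721, adjusted 0.0666) and r = 0.67 without those 2, a call lost in 13 of 17 fits. Fermt2 followed the astrocyte score, with r = 0.77 (permutation p = 0.00284, adjusted 0.0447), rho = 0.69 (permutation p = 0.00948, adjusted 0.0743) and r = 0.63 without those 2, a call lost in 15 of 17 fits. The astrocyte score was higher in APP/PS1, as given above, and its part in the level of Fermt2 was not tested. Mef2c followed the neuronal score, with r = 0.74 (permutation p = 0.00198, adjusted 0.0396), rho = 0.74 (permutation p = 0.00258, adjusted 0.0384) and r = 0.71 without those 2, a call lost in 13 of 17 fits. Rin3 followed the perivascular macrophage score, with r = 0.76 (permutation p = 0.00074, adjusted 0.0225), rho = 0.80 (permutation p = 0.00073, adjusted 0.0219) and r = 0.68 without those 2, a call lost in 8 of 17 fits. Picalm followed the same score, with r = 0.70 (permutation p = 0.00183, adjusted 0.0396), rho = 0.61 (permutation p = 0.00928, adjusted 0.0743) and r = 0.58 without those 2, a call lost in 12 of 17 fits. Bin1 went against this score, with r = -0.74 (permutation p = 0.00028, adjusted 0.0225), rho = -0.85 (permutation p = 8e-05, adjusted 0.0096) and r = -0.76 without those 2, a call lost in 4 of 17 fits. Bin1 also went against the fibroblast score, with r = -0.86 (permutation p = 0.00075, adjusted 0.0225), rho = -0.85 (permutation p = 0.00037, adjusted 0.0176) and r = -0.79 without those 2, a call lost in 5 of 17 fits. Cass4, at its few counts, rose with the choroid plexus score, with r = 0.70 (permutation p = 0.00335, adjusted 0.0447), rho = 0.73 (permutation p = 0.00044, adjusted 0.0176) and r = 0.61 without those 2, a call lost in 15 of 17 fits. In the scores themselves libraries ranged from 1.80 to 8.21 for choroid plexus and from 4.8 to 5.93 for fibroblasts. Another 4 pairs passed by rho and not by r. Ptk2b had rho = 0.76 with the neuronal score (permutation p = 0.00268, adjusted 0.0384) and r = 0.68 (permutation p = 0.0099, adjusted 0.0792). Sorl1 had rho = 0.71 with the oligodendrocyte score (permutation p = 0.00181, adjusted 0.0384) and r = 0.66 (permutation p = 0.0143, adjusted 0.107), and its largest r, 0.70 with the astrocyte score, did not pass (permutation p = 0.0218, adjusted 0.12). Cd33 had rho = 0.77 with the smooth muscle score (permutation p = 0.00334, adjusted 0.0401) and r = 0.70 (permutation p = 0.00974, adjusted 0.0792). With the endothelial score Bin1 had r = -0.80 (permutation p = 0.00566, adjusted 0.0617) and rho = -0.77 (permutation p = 0.00288, adjusted 0.0384).

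**Figure D5:**
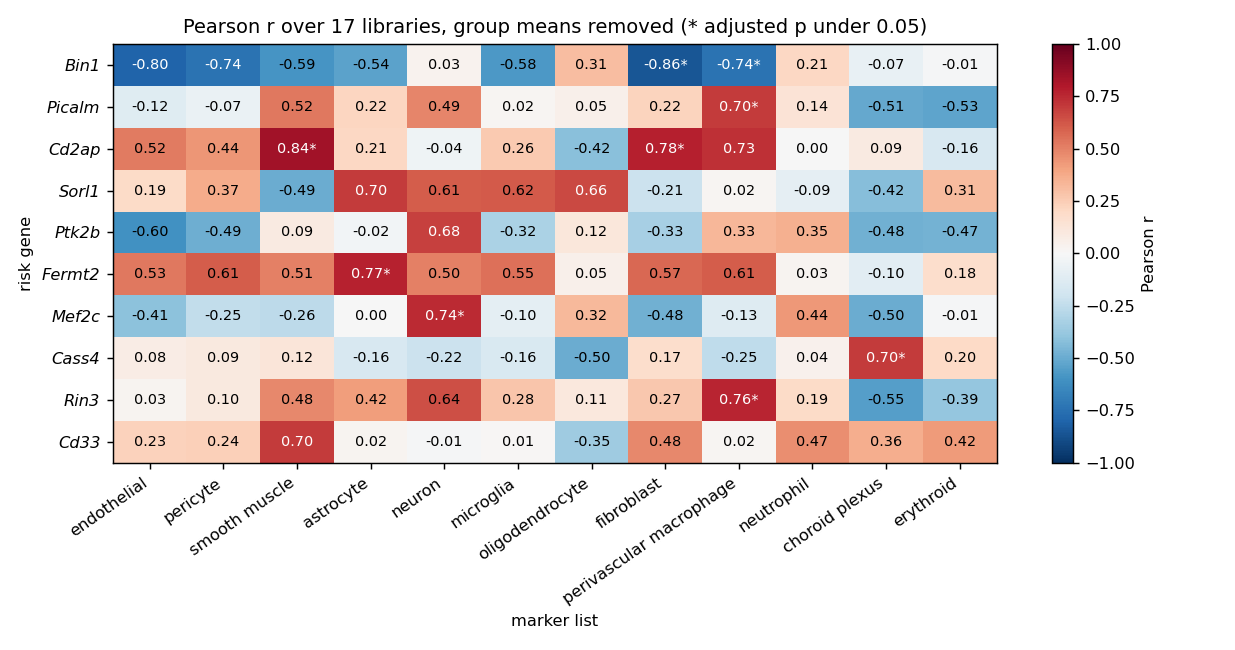
Pearson's r over 17 libraries, group means removed, of each risk gene (rows) with each marker score (columns), with a star where the adjusted p is under 0.05. Cd2ap is highest with smooth muscle at 0.84, Bin1 lowest with fibroblasts at -0.86, and Cd33 is at 0.01 with microglia.

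Among the 45 pairs of risk genes 7 passed by r, 5 of them positive. Picalm and Rin3 were closest, with r = 0.88 (permutation p = 0.00037, adjusted 0.0166 over 45 pairs), rho = 0.85 (permutation p = 0.00018, adjusted 0.0081) and r = 0.75 without the 2 libraries farthest from the median of Rin3. WT_SC replicate 1, the largest library, had the highest level of both genes, 318 CPM of Picalm and 42.3 CPM of Rin3, and without it r was 0.81. This call was lost in 2 of the 17 fits with 1 library left out. Bin1 went against Fermt2, with r = -0.74 (permutation p = 0.00123, adjusted 0.0277) and rho = -0.70 (permutation p = 0.00626, adjusted 0.0402), and r = -0.78 without the 2 farthest, a call lost in 6 of 17 fits. The other 5 pairs lost theirs in 11 to 16 of 17. With DESeq2 size factors 3 of the 45 pairs passed, and without WT_SC replicate 1 or APP_NOX2 replicate 4 none did.

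The genes most alike to each risk gene were ranked by the same r among 13378 genes with a mean of at least 5 CPM. These are the highest of many values, and the points share library and depth. Sorl1 was most like Vgf (0.97), Ric3 (0.97) and Cbln2 (0.96), and Ptk2b most like Camk2a (0.96), Dapk1 (0.96) and Wipf3 (0.94). Fermt2 was most like Arpc2 (0.95), Gsk3b (0.95) and Nedd9 (0.95). Rin3 was most like Tacc1 (0.95), Klf9 (0.93) and Eps8 (0.93), Cd2ap most like Mylk (0.93), Lpp (0.91) and Nr2f2 (0.90), and Bin1 most like C530050E15Rik (0.93), Mbip (0.91) and Tia1 (0.90). Picalm was most like Sh3bp5 (0.92), S100a10 (0.91) and Topors (0.91), and Mef2c most like Zfp125 (0.92), Satb1 (0.89) and Cnksr2 (0.88). Cd33 was most like Stat2 (0.92), Srgap2 (0.87) and Klf12 (0.85). For Cass4, with its few counts, the highest values were those of Me1 (0.86), Dsg2 (0.85) and Emb (0.84).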

How the data were processed

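Per the labels' protocols, cortical microvessels were collected by centrifugation through dextran, and their RNA was depleted of ribosomal RNA and prepared with a kit that marks strand. The authors deposited raw counts per Ensembl gene. The submitters' processing notes name cutadapt, STAR, HTSeq and DESeq2 and the builds mm10 and GRCh37; versions, annotation, strand setting and filters are not given in the sources used here. The table held 20 further columns whose names match no sample, which were not used. GENCODE vM21 gave symbols for 42250 IDs.

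Counts were filtered with filterByExpr, scaled by TMM and tested with the quasi-likelihood test of edgeR 4.0.16 in R 4.3.3, adjusted over all 18753 genes by Benjamini-Hochberg at 0.05, with additive models for genotype and inhibitor and 1 mean per group for other comparisons. All 17 libraries entered each fit, and no covariate other than genotype and peptide was used. Standard errors come from the F statistic. Log2 CPM used a prior count of 2. Permutations for correlations, 100000, were drawn within groups. Within groups, 31 pairs of libraries differed by 5.13 to 88.1 in chi-square per degree of freedom, so each counts as 1 replicate. The 3-count floor was 0.174 to 0.39 CPM and covers counting error only. The scripts were tested on simulated data. DESeq2 1.42.0, its size factors, no filter, other priors and leaving out libraries were alternatives.

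The genes and lists were chosen with earlier results of these data known. The text names all 10 risk genes, list genes past the threshold (up to 4 a list) or else the smallest p by genotype and inhibitor, 1 paralogue and the 3 most alike genes for each, App and Prnp. Other markers were named after their values were seen, and 1 microglia marker that is part of the score is not reported here by itself.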

Additional observations from a re-analysis of the deposited data

Results flagged for a closer look

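Picalm in WT_SC replicate 1 stood apart from the rest of its group, at 318 CPM against 252 to 266 CPM in the other 4 libraries. The gap to the nearest library was 0.775 of the range of the group on the log2 scale, above Dixon's 95% critical value of 0.71 for 5 libraries. Of 30 groups of 5 libraries examined, 3 for each risk gene, this was the only 1 past that value, where chance gives 1.5. WT_SC replicate 1 was the largest library, with 17862965 counts, and the part of its depth in the level of Picalm was not tested.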

How the results depend on the processing

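Over the alternatives, Cd33 was higher in APP/PS1 over both peptides in every fit, with log2 changes from 0.478 to 0.527, and the number of risk genes called there was 1 in each. The DESeq2 Wald test called 182 genes for genotype over both peptides, where edgeR called 110. It called 45 genes with control peptide, where edgeR called 10, and 61 with inhibitor, where edgeR called 34. With control peptide it called 1 risk gene, Cd33. The cause of these differences was not tested.

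When 1 library was left out, the number of genes called was 70 to 125 for genotype over both peptides, 4 to 17 with control peptide and 15 to 38 with inhibitor. The number of risk genes called with inhibitor was 0 to 1. Over both peptides the count was 70 without APP_SC replicate 2. With control peptide it was 4 without APP_SC replicate 2, 6 without WT_SC replicate 3 or APP_SC replicate 1, and 17 without WT_SC replicate 4. With inhibitor it was 15 without WT_NOX2 replicate 5 or APP_NOX2 replicate 2, 17 without APP_NOX2 replicate 4, 19 without WT_NOX2 replicate 3 and 21 without WT_NOX2 replicate 1. Where APP_SC lost a library, the other was assumed to vary like the other groups.

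For correlations with marker scores, 9 pairs passed with all libraries. The number was 0 without WT_SC replicate 2, 3 or 5 or WT_NOX2 replicate 5, 1 without WT_SC replicate 4, and 3 without APP_NOX2 replicate 4. It was 4 without WT_SC replicate 1, WT_NOX2 replicate 1 or APP_NOX2 replicate 3, and 5 without WT_NOX2 replicate 2 or APP_NOX2 replicate 2. For pairs of risk genes, 7 passed with all libraries and 3 with DESeq2 size factors. The number was 0 without WT_SC replicate 1 or APP_NOX2 replicate 4, 1 without WT_SC replicate 2, 3 or 5, 2 without WT_NOX2 replicate 1, 2 or 5 or either APP_SC library, 3 without APP_NOX2 replicate 1 or 3, 4 without WT_SC replicate 4, WT_NOX2 replicate 3 or 4 or APP_NOX2 replicate 2, and 6 at most.

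Changes that did not pass sometimes crossed 0. In log2, Bin1 with inhibitor in WT was -0.01 with DESeq2 size factors and with the DESeq2 test and -0.008 with no filter. Sorl1 by genotype was 0.002 with no filter and 0.006 as the mean of the effects within each peptide, and Rin3 with inhibitor was -0.01 as the mean within each genotype. When 1 library was left out, log2 changes that crossed 0 ran as follows: For genotype over both peptides, Bin1 -0.001 to 0.048, Sorl1 -0.095 to 0.043, Ptk2b -0.087 to 0.063, Fermt2 -0.011 to 0.093, Mef2c -0.042 to 0.017, Cass4 -0.157 to 0.126. For inhibitor over both genotypes, Bin1 -0.027 to 0.041, Ptk2b -0.052 to 0.094, Fermt2 -0.004 to 0.098, Cass4 -0.338 to 0.057, Rin3 -0.085 to 0.224. For genotype with control peptide, Bin1 -0.08 to 0.03, Picalm -0.012 to 0.201, Sorl1 -0.01 to 0.08, Ptk2b -0.383 to 0.107, Fermt2 -0.047 to 0.244, Mef2c -0.022 to 0.099, Cass4 -0.485 to 0.109, Rin3 -0.006 to 0.629. For genotype with inhibitor, Picalm -0.007 to 0.087, Cd2ap -0.098 to 0.022, Sorl1 -0.18 to 0.058, Ptk2b -0.059 to 0.147, Fermt2 -0.089 to 0.085, Mef2c -0.09 to 0.003, Cass4 -0.075 to 0.438, Rin3 -0.13 to 0.174. For inhibitor in WT, Bin1 -0.074 to 0.037, Picalm -0.086 to 0.037, Cd2ap -0.041 to 0.076, Sorl1 -0.084 to 0.035, Ptk2b -0.137 to 0.071, Cass4 -0.653 to 0.045, Rin3 -0.049 to 0.485. For inhibitor in APP/PS1, Picalm -0.198 to 0.015, Sorl1 -0.238 to 0.003, Ptk2b -0.095 to 0.394, Fermt2 -0.154 to 0.137, Rin3 -0.36 to 0.131. For the interaction, Picalm -0.17 to 0.043, Sorl1 -0.213 to 0.037, Ptk2b -0.058 to 0.432, Fermt2 -0.238 to 0.053, Rin3 -0.623 to 0.012, Cd33 -0.031 to 0.053.

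No paired analysis was possible because the labels carry no replicate numbers that groups share. The depth limits Cass4, with 2 to 17 counts a library and a 95% interval that reached 1.74-fold by genotype. APP_SC has 2 libraries, which limits each comparison that uses it alone.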
